A study of Mus musculus with 14 samples.

Results

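The genes described here mark pericytes and vascular smooth muscle, the mural cells that wrap blood vessels. They were taken as the rows of the deposited count table with 10 chosen symbols, and all 10 were found among the 24062 genes of the table. *Rgs5*, *Higd1b*, *Notch3*, *Cspg4* and *Mcam* are weighted towards pericytes, and *Acta2*, *Tagln*, *Cnn1*, *Myh11* and *Mylk* belong to the contractile apparatus of smooth muscle. All 10 passed the filter on low counts in each comparison. Bulk RNA-seq was made from whole tissue of mice labelled as a mixed strain, and no drug was given. The controls were normal dorsal root ganglia (DRGs) with their nerves from *Nf1*fl/fl mice (n = 3), which carry the floxed gene without Cre. Plexiform neurofibromas (PNs, n = 11) came from DhhCre;*Nf1*fl/fl mice, in which *Dhh* regulatory sequence drives the Cre in the Schwann cell lineage, and recombination in mural cells was not measured here. MRI at 7 and 9 months of age separated slow-growing PNs (n = 5, volume changed by under 5 mm3 in 2 months) from fast-growing PNs (n = 6, grown by over 35 mm3), and the tissue was taken at 9 months according to the methods.

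Pericytes sit on capillaries within the basement membrane and support the endothelium, whereas smooth muscle cells ring arteries, arterioles and veins and set their diameter. Contraction follows when calcium and calmodulin activate myosin light chain kinase, which phosphorylates the light chain of smooth muscle myosin and lets it pull on alpha actin filaments. Most contractile genes are driven by serum response factor with its coactivator myocardin, which act through a DNA element called the CArG box, and NOTCH3 on mural cells receives signals from ligands on neighbouring endothelial cells.

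Promoter windows of *Acta2*, *Cnn1* and *Rgs5* are shown because *Acta2* and *Cnn1* are contractile genes that were below every control in the same 10 PNs, while the groups overlapped for *Rgs5*. The windows run from 250 bases before to 50 bases after 1 RefSeq start per gene on GRCm38.p6. They are given 5′ to 3′ on the gene's strand. Capitals mark CArG boxes with at most 1 C or G in the core that otherwise holds A and T. The windows are chr19:34255324-34255623 on the minus strand for *Acta2*, chr9:22099003-22099302 on the plus strand for *Cnn1* and chr1:169655251-169655550 on the plus strand for *Rgs5*.
Acta2: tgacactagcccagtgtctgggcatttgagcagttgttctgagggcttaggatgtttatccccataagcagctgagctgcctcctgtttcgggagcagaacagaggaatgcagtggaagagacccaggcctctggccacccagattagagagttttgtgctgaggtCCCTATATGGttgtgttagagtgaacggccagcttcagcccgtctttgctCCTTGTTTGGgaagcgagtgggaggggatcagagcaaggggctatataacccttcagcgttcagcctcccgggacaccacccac
Cnn1: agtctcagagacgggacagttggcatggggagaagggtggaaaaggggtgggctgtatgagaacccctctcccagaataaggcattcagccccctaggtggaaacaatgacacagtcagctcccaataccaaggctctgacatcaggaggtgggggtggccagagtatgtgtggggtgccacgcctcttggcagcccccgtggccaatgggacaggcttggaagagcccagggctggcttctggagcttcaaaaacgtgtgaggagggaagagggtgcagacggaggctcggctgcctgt
Rgs5: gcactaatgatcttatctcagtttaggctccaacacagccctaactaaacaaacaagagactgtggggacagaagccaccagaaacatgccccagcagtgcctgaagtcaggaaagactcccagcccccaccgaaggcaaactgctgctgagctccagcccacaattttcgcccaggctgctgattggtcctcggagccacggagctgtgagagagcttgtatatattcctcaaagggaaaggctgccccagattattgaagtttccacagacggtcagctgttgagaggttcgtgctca

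RefSeq windows were matched for 7 of the 10 genes, and none was matched for *Higd1b*, *Tagln* or *Myh11*. The RefSeq start used is not always the outer end of the gene in the GENCODE vM21 annotation. The *Mylk* window, chr16:34784700-34784999, lies inside that gene, which begins at 34745210 there. On the minus strand *Acta2* begins at 34255590 there, inside its window. Windows at other starts were not searched. Both strands were searched for the CArG box. No strict match was found in these 7 windows, against 1.63% of all 32851 windows of the same length that hold one. With 1 C or G allowed in the core, the *Acta2* window held 2 matches, beginning 84 and 34 bases before the RefSeq start, and the other 6 windows held none. That looser form was present in 9.98% of all windows. A match is only a description of the letters in the window.

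Levels are given as CPM, which puts the counts of all libraries on 1 scale after TMM adjustment. Total counts on genes ranged from 9596773 to 17594164 per library, and 3 counts corresponded to between 0.167 and 0.313 CPM, a floor that covers counting error only. A gene was called when its p from the quasi-likelihood test of edgeR, adjusted by Benjamini-Hochberg over all genes tested, was under 0.05. The labels do not say more about replicates than the mouse number, so p-values measure the spread between these libraries. One slow-growing PN, library 1206, stood apart in these genes, and each result that rests on it is given with and without it. It was singled out by the levels of these same genes. Results without it therefore describe the other libraries and are no independent support. In whole tissue, fewer cells of a type and less RNA per cell cannot be told apart. Defining markers of the nerve were present in every group, with a summed Schwann cell marker level of 4598 to 13795 CPM in controls, 9592 to 22125 CPM in slow-growing PNs and 8641 to 13160 CPM in fast-growing PNs.

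The contractile genes were low in 10 of 11 PNs and high in the remaining one. *Acta2*, which encodes the alpha actin of smooth muscle filaments, measured 381, 279 and 307 CPM in the 3 controls. In the slow-growing PNs it measured 40.3, 26.3, 38.9, 12.9 and 478 CPM, and in the fast-growing PNs it ran from 13.8 through a median of 26.4 to 67.6 CPM. All PNs other than library 1206 lay below the lowest control, and library 1206 lay above the highest.

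*Myh11*, the heavy chain of smooth muscle myosin and the most restricted of these markers, measured 223, 177 and 158 CPM in controls. The slow-growing PNs gave 18.8, 10.7, 17.2, 8.42 and 281 CPM, and the fast-growing PNs gave 5.53 to 27.5 CPM with a median of 13.4 CPM. As for *Acta2*, library 1206 was above each control and the other PNs did not overlap the controls. *Cnn1*, which encodes the actin-binding protein calponin, measured 20.9, 19.6 and 20.8 CPM in controls. It measured 0.532, 1.33, 0.733 and 24.8 CPM in slow-growing PNs 1079, 1202, 1203 and 1206, and library 1198A held 0 counts, which allows a level of up to 0.225 CPM. The fast-growing PNs ran from 0.273 to 1.04 CPM with a median of 0.740 CPM, so *Cnn1* was near the floor in each PN but one.

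*Tagln*, which encodes the actin-associated protein transgelin, measured 76.1, 54.3 and 73.1 CPM in controls. It measured 23.5, 18.8, 20.9, 5.59 and 82.0 CPM in slow-growing PNs, and 8.80 to 25.6 CPM with a median of 10.9 CPM in fast-growing PNs. *Mylk*, the kinase that phosphorylates myosin light chain, measured 73.2, 100.1 and 85.2 CPM in controls. Its levels were 23.7, 26.3, 24.4, 9.43 and 103 CPM in slow-growing PNs and 21.4 to 40.7 CPM, with a median of 33.2 CPM, in fast-growing PNs. In both genes library 1206 again exceeded the highest control and the other 10 PNs fell below the lowest.

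**Figure D1:**
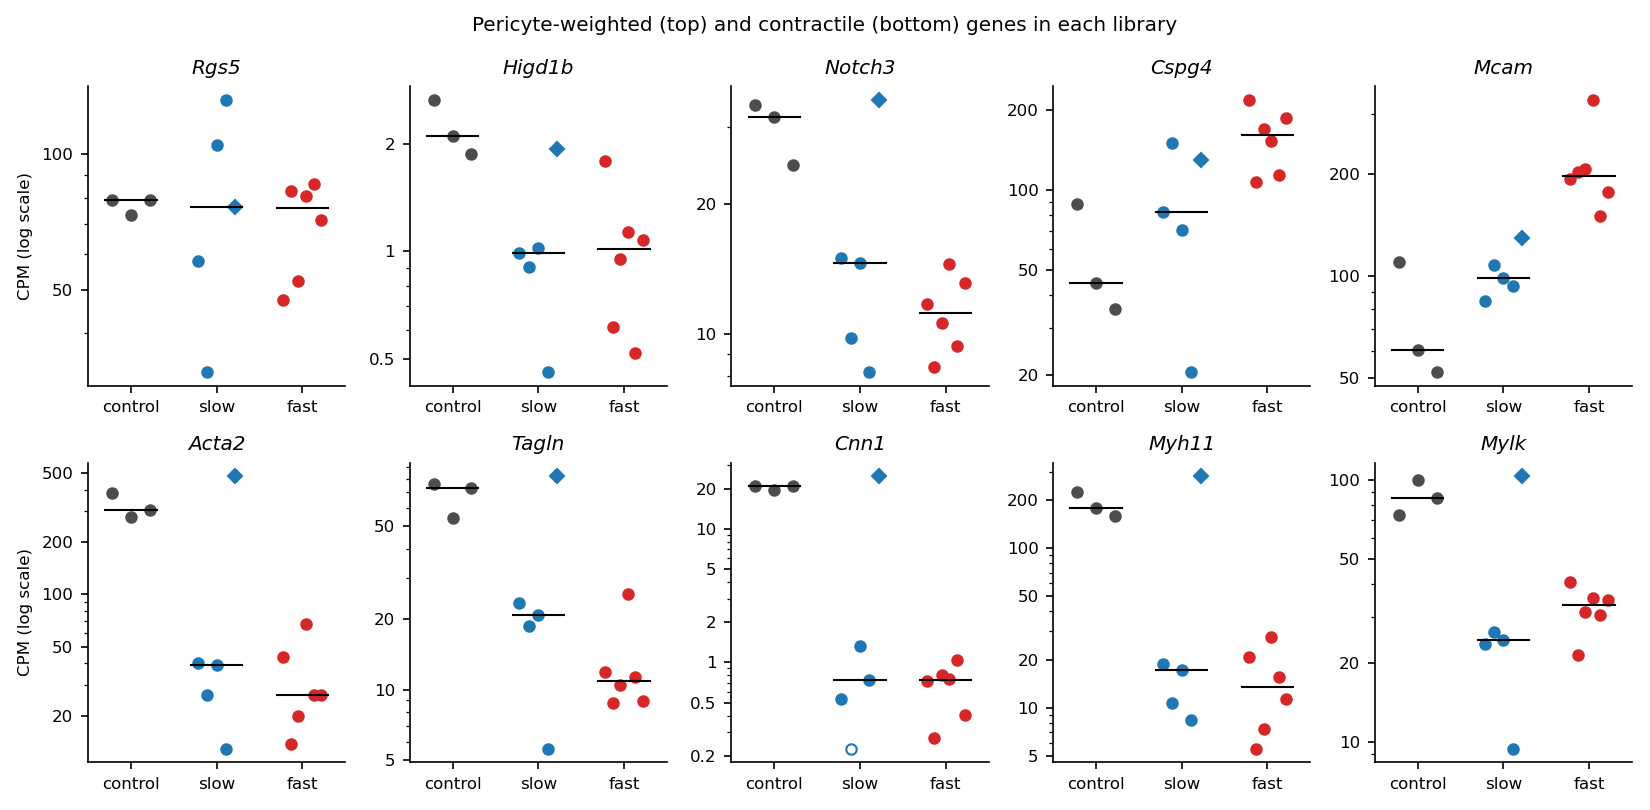
Level of each gene in each library, in CPM on a log axis, for controls (grey, n = 3), slow-growing PNs (blue, n = 5) and fast-growing PNs (red, n = 6). Lines are medians, the diamond is library 1206, and the open circle for Cnn1 marks 0 counts drawn at the floor of 0.225 CPM. The 5 contractile genes in the lower row and Notch3 separate 10 PNs from the controls, with library 1206 above the highest control.

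The pericyte-weighted genes did not move as a group. *Rgs5*, a regulator of G protein signalling that is abundant in pericytes, measured 79.2, 73.1 and 79.2 CPM in controls. Its levels were 57.9, 32.8, 104.8, 132 and 76.1 CPM in slow-growing PNs and 47.4 to 85.8 CPM, with a median of 76.0 CPM, in fast-growing PNs. The 3 groups overlapped, and the slow-growing PNs spread on both sides of the controls.

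*Notch3*, the Notch receptor of mural cells, followed the contractile genes. It measured 33.8, 31.7 and 24.6 CPM in controls, 14.96, 9.77, 14.6, 8.15 and 34.8 CPM in slow-growing PNs, and 8.39 to 14.5 CPM with a median of 11.2 CPM in fast-growing PNs. Every PN but library 1206 lay below the lowest control. *Higd1b*, a hypoxia-inducible domain family gene used as a pericyte marker, rested on few counts in controls, at 2.66, 2.11 and 1.88 CPM (31, 23 and 18 counts). It measured 0.987, 0.902, 1.02, 0.458 and 1.93 CPM in slow-growing PNs and 0.519 to 1.78 CPM in fast-growing PNs, so only library 1206 reached the range of the controls.

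*Cspg4* and *Mcam* ran the other way. *Cspg4*, which encodes the NG2 proteoglycan of pericytes and of some glial and stromal precursors, measured 88.2, 44.6 and 35.5 CPM in controls and 82.6, 150.2, 70.4, 20.5 and 129 CPM in slow-growing PNs. In fast-growing PNs it ran from 107 to 218 CPM with a median of 161 CPM, above each control. *Mcam*, an adhesion molecule (CD146) that endothelial cells also make, measured 109.8, 60.7 and 52.0 CPM in controls, 84.1, 107.5, 98.8, 93.2 and 129 CPM in slow-growing PNs, and 150.5 to 331 CPM with a median of 198 CPM in fast-growing PNs. The fast-growing PNs lay above all controls and all slow-growing PNs for *Mcam*.

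The order of the genes by level per length differed between controls and fast-growing PNs. In controls the median level per kilobase of exon was highest for *Acta2* (139.8 CPM per kb), followed by *Tagln* (36.8 CPM per kb) and *Myh11* (23.3 CPM per kb), with *Mcam* at 18.1 and *Rgs5* at 17.4 CPM per kb. In fast-growing PNs it was highest for *Mcam* (59.0 CPM per kb), followed by *Rgs5* (16.7 CPM per kb), *Cspg4* (13.5 CPM per kb) and *Acta2* (12.0 CPM per kb). *Cnn1* went from 7.62 CPM per kb in controls to 0.271 CPM per kb in fast-growing PNs, the lowest of the 10 genes there. Ratios of counts within a library need no scaling between libraries. *Myh11* gave 1.99 to 2.82 counts per *Rgs5* count in controls, 0.0666 to 0.439 in fast-growing PNs, and 0.0637 to 0.326 in 4 slow-growing PNs, against 3.70 in library 1206.

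Fast-growing PNs against controls addressed whether mural genes differ in the PNs that gained volume. The 5 contractile genes and *Notch3* fell, *Cspg4* and *Mcam* rose, and *Rgs5* and *Higd1b* did not pass the test. On the log2 scale the fold change was -5.00 for *Cnn1* (SE 0.33, edgeR adjusted p = 1.87e-05) and -3.72 for *Myh11* (SE 0.45, edgeR adjusted p = 0.000291). It was -3.35 for *Acta2* (SE 0.43), -2.47 for *Tagln* (SE 0.33), -1.48 for *Mylk* (SE 0.20) and -1.47 for *Notch3* (SE 0.20), with edgeR adjusted p-values from 0.000443 to 0.000577. *Mcam* rose by 1.45 (SE 0.31, edgeR adjusted p = 0.00651) and *Cspg4* by 1.44 (SE 0.34, edgeR adjusted p = 0.0100).

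The 8 of 10 genes called in that comparison, 6 lower and 2 higher, compare with 31.4% of all 16037 genes tested, 16.7% lower and 14.8% higher. *Higd1b* had a log2 fold change of -1.18 (SE 0.40, edgeR adjusted p = 0.0501) and *Rgs5* one of -0.21 (SE 0.20, edgeR adjusted p = 0.457). The levels of fast-growing PNs and controls did not overlap for 7 genes that were lower and 2 that were higher, as for 32.7% of all genes tested (14.9% lower and 17.8% higher). *Rgs5* alone overlapped. Leaving out control library DRG4 took *Cspg4* to an edgeR adjusted p of 0.0503. Leaving out fast-growing library 1053 took *Higd1b* to 0.0234, and no other member's call changed when 1 library was left out. Skeletal muscle and fat transcripts also separated these groups, with summed skeletal muscle markers at 3962 to 16129 CPM in controls and 86.9 to 2555 CPM in fast-growing PNs, and summed fat markers at 4256 to 6084 CPM against 21.6 to 288 CPM. When scores of both lists entered the fit as covariates, 0 members and 0 of all genes passed the edgeR test. The log2 fold changes in that fit were -4.60 for *Cnn1*, -2.01 for *Mylk*, -1.97 for *Notch3* and 1.98 for *Mcam*, while those of *Myh11*, *Acta2* and *Tagln* were -1.97, -1.81 and -0.60, and *Cspg4* changed sign to -0.31.

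Slow-growing PNs against controls gave no call among the 10 genes while library 1206 was included. In the edgeR test 0 members passed, against 11.3% of all 15714 genes tested, and 1 (*Higd1b*, log2 fold change -1.11, SE 0.45) had an unadjusted p under 0.05. DESeq2 called 0 of the 7 members to which it gave a p, and it gave none to *Acta2*, *Cnn1* or *Myh11*. The fold changes were -1.96 (SE 1.38) for *Cnn1*, -1.51 (SE 1.13) for *Myh11* and -1.48 (SE 1.07) for *Acta2* on the log2 scale. These errors were smaller than the changes but large beside them. The groups overlapped for all 10 genes, where 23.5% of all genes did not.

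Without library 1206, 6 genes were lower in slow-growing PNs than in controls and none was higher, against 7.87% of all genes called and 5.41% called lower. That library was singled out by its levels of these genes, so the calls and p-values without it are descriptions. Levels did not overlap for 7 genes, these 6 and *Higd1b*, all lower, as for 14.1% of all genes. The log2 fold changes were -5.07 (SE 0.77) for *Cnn1*, -3.81 (SE 0.33) for *Myh11* and -3.50 (SE 0.40) for *Acta2*, with edgeR adjusted p-values of 0.0116, 0.00447 and 0.00664. Those of *Mylk*, *Tagln* and *Notch3* were -2.10 (SE 0.35), -2.03 (SE 0.44) and -1.40 (SE 0.27), with edgeR adjusted p-values of 0.0149, 0.0360 and 0.0248. *Rgs5* was at 0.02 (SE 0.43), and *Higd1b* at -1.44 (SE 0.41, edgeR adjusted p = 0.0734). Without control library DRG3 and with library 1206 kept, *Mcam* alone passed the edgeR test (adjusted p = 0.0483). Skeletal muscle and fat markers also separated every slow-growing PN from every control, with sums of at most 3797 against at least 3962 CPM and at most 3255 against at least 4256 CPM. With both scores as covariates and library 1206 kept, 0 of all 15714 genes passed the edgeR test. The log2 fold changes in that fit were -3.54 for *Cnn1*, -2.59 for *Myh11* and -1.87 for *Acta2*. Those of *Mylk*, *Notch3* and *Tagln* were -0.90, -0.57 and -0.39. Both comparisons use the same 3 controls.

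**Figure D2:**
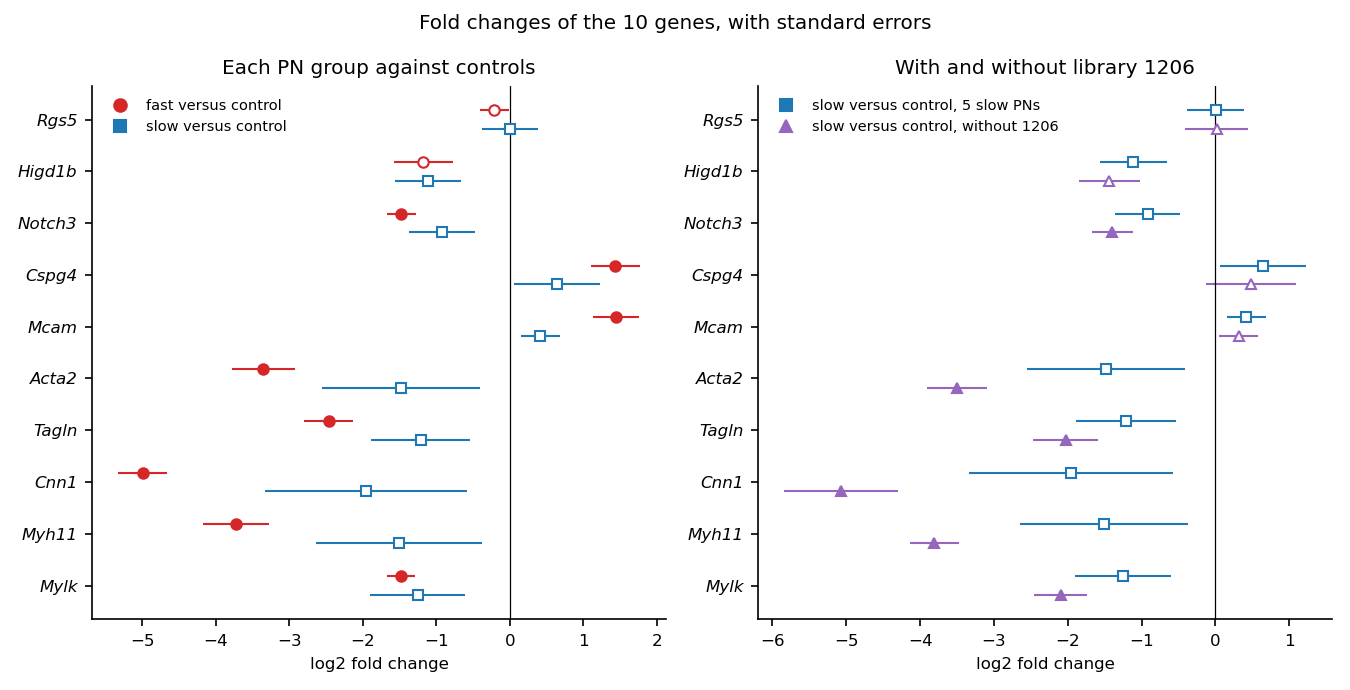
Log2 fold change of each gene with its standard error. On the left are fast-growing (red) and slow-growing (blue) PNs against the same controls, and on the right slow-growing PNs against controls with all 5 PNs (blue squares) and without library 1206 (purple triangles); filled symbols have an edgeR adjusted p under 0.05. The slow-growing changes of Cnn1, Myh11 and Acta2 move from -1.96, -1.51 and -1.48 to -5.07, -3.81 and -3.50 without that library.

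All 11 PNs against controls gave 4 lower genes and none higher, against 26.3% of all 16283 genes called, with 13.4% called lower. The log2 fold changes were -1.73 (SE 0.58) for *Tagln*, -1.33 (SE 0.43) for *Mylk*, -1.16 (SE 0.34) for *Notch3* and -1.11 (SE 0.37) for *Higd1b*, with edgeR adjusted p-values of 0.0392, 0.0362, 0.0216 and 0.0410. *Acta2*, *Cnn1* and *Myh11* had fold changes of -2.18 (SE 0.86), -2.88 (SE 1.13) and -2.29 (SE 0.94) that did not pass (edgeR adjusted p = 0.0765, 0.0740 and 0.0858). *Mcam* stood at 1.10 (SE 0.40, edgeR adjusted p = 0.0558), *Cspg4* at 1.16 (SE 0.52, edgeR adjusted p = 0.110) and *Rgs5* at -0.06 (SE 0.31).

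Without library 1206, 7 genes were lower in PNs than in controls, namely the 5 contractile genes, *Notch3* and *Higd1b*, against 27% of all genes called and 14% called lower. Because that library was singled out by its levels of these genes, the calls and p-values without it are descriptions. *Cnn1*, *Myh11* and *Acta2* then had log2 fold changes of -4.97 (SE 0.48), -3.72 (SE 0.35) and -3.37 (SE 0.37), with edgeR adjusted p-values of 1.7e-05, 1.43e-05 and 3.56e-05. The levels of these 10 PNs and the controls did not overlap for the same 7 genes, all lower, as for 10.2% of all genes tested. With library 1206 included, all 10 genes overlapped, where 17.6% of all genes did not. The count of called genes also fell to 0 without control library DRG4 or DRG5 and to 1 without DRG3, 1198A, 1071, 1179, 1214 or 1216. Without DRG3 that gene was *Mcam*, which was higher (edgeR adjusted p = 0.0342), and no lower gene passed. In the other fits with 1 call it was *Notch3*, lower. Once the muscle and fat scores were covariates, 0 of the 10 and 457 of all genes passed the edgeR test. The log2 fold changes were then -2.72 for *Cnn1*, -1.66 for *Mylk* and -1.20 for *Higd1b*, -0.75 for *Notch3*, -0.47 for *Tagln* and 0.0068 for *Mcam*. After removal of a length and GC trend, *Higd1b* (-0.49, edgeR adjusted p = 0.398) and *Tagln* (-1.29, edgeR adjusted p = 0.137) no longer passed and *Mcam* did (1.27, edgeR adjusted p = 0.0495).

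Fast-growing against slow-growing PNs addressed whether mural genes go with growth. *Mcam* was higher in fast-growing PNs, with a log2 fold change of 1.03 (SE 0.20, edgeR adjusted p = 0.0449), and was the 1 member called, against 1.27% of all 15465 genes tested (0.802% higher). Its levels did not overlap between the groups, as for 3.04% of all genes (2.13% higher), and still did not without library 1206, as for 2.69%. The edgeR adjusted p ran from 0.0217 to 0.129 when 1 library was left out, and the call was lost without 1079, 1202, 1206, 1053, 1179, 1191 or 1216. It was also lost with the muscle and fat scores as covariates (log2 fold change 1.21, edgeR adjusted p = 0.279) and after removal of a length and GC trend (1.05, edgeR adjusted p = 0.0532). *Cspg4* stood at 0.80 (SE 0.41, edgeR adjusted p = 0.296) and *Rgs5* at -0.20 (SE 0.31).

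No contractile gene passed the test between the PN groups, and their fold changes depended on library 1206. With it, *Cnn1* stood at -3.02 (SE 1.18), *Myh11* at -2.20 (SE 0.92), *Acta2* at -1.86 (SE 0.86), *Tagln* at -1.24 (SE 0.55) and *Mylk* at -0.21 (SE 0.48) on the log2 scale, fast against slow. Without it, the values were 0.10 (SE 0.71), 0.10 (SE 0.44), 0.16 (SE 0.46), -0.42 (SE 0.42) and 0.63 (SE 0.29) in the same order, and *Notch3* went from -0.55 (SE 0.34) to -0.06 (SE 0.23). *Mcam* was at 1.14 (SE 0.22) without it, with an edgeR adjusted p of 0.120, and 2 of all genes (0.0128%) passed.

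**Figure D3:**
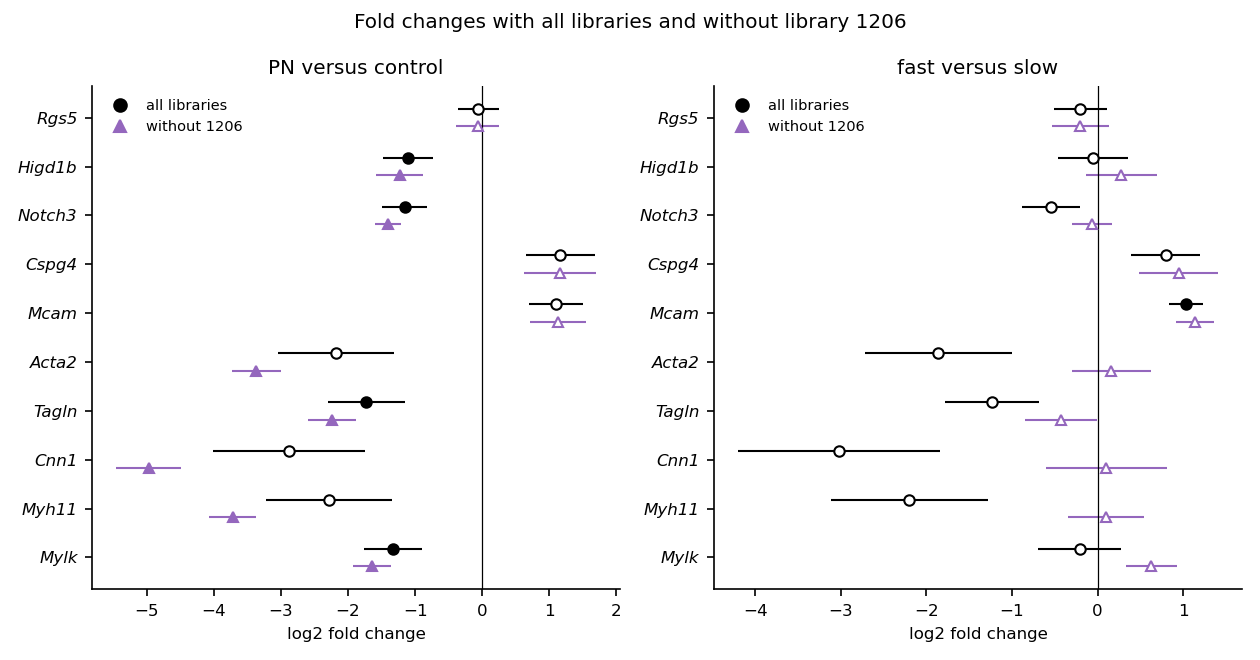
Log2 fold change of each gene with its standard error for all PNs against controls (left) and fast-growing against slow-growing PNs (right), with all libraries (black circles) and without library 1206 (purple triangles); filled symbols have an edgeR adjusted p under 0.05. Without that library the contractile genes lie lower against controls, and between the PN groups Cnn1, Myh11, Acta2, Tagln and Mylk are at 0.10, 0.10, 0.16, -0.42 and 0.63.

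Library 1206 was above each control for 8 of the 10 genes, as it was for 32.8% of all genes tested, and was the highest of all 14 libraries for 6 of them, *Notch3* and the 5 contractile genes, as for 6.02% of all genes. Against the highest of the other PNs, its level was 18.7 times as high for *Cnn1*, 10.2 times for *Myh11*, 7.06 times for *Acta2*, 3.20 times for *Tagln*, 2.54 times for *Mylk* and 2.33 times for *Notch3*. Against the control mean its level of *Acta2* was 1.48 times and that of *Myh11* 1.51 times as high. Its *Rgs5* level of 76.1 CPM was 0.986 times the control mean.

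Skeletal muscle markers summed to 57.1 CPM in library 1206, where the 3 controls held at least 3962 CPM, so its contractile transcripts were high beside few skeletal muscle transcripts. Fat markers summed to 3255 CPM, the highest of the PNs and below the lowest control (4256 CPM), while libraries 1198A and 1202, with 1911 and 1956 CPM, held 26.3 and 38.9 CPM of *Acta2*. Endothelial markers summed to 593 CPM in library 1206, within the control range of 458 to 606 CPM, against 130 to 424 CPM in the other PNs. Singly, 7 of these 12 genes were above every control in library 1206, 3 were within the control range and 2 below it. Schwann cell markers summed to 22125 CPM, the highest of all libraries. The part of these tissues in its mural gene levels was not tested.

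**Figure D4:**
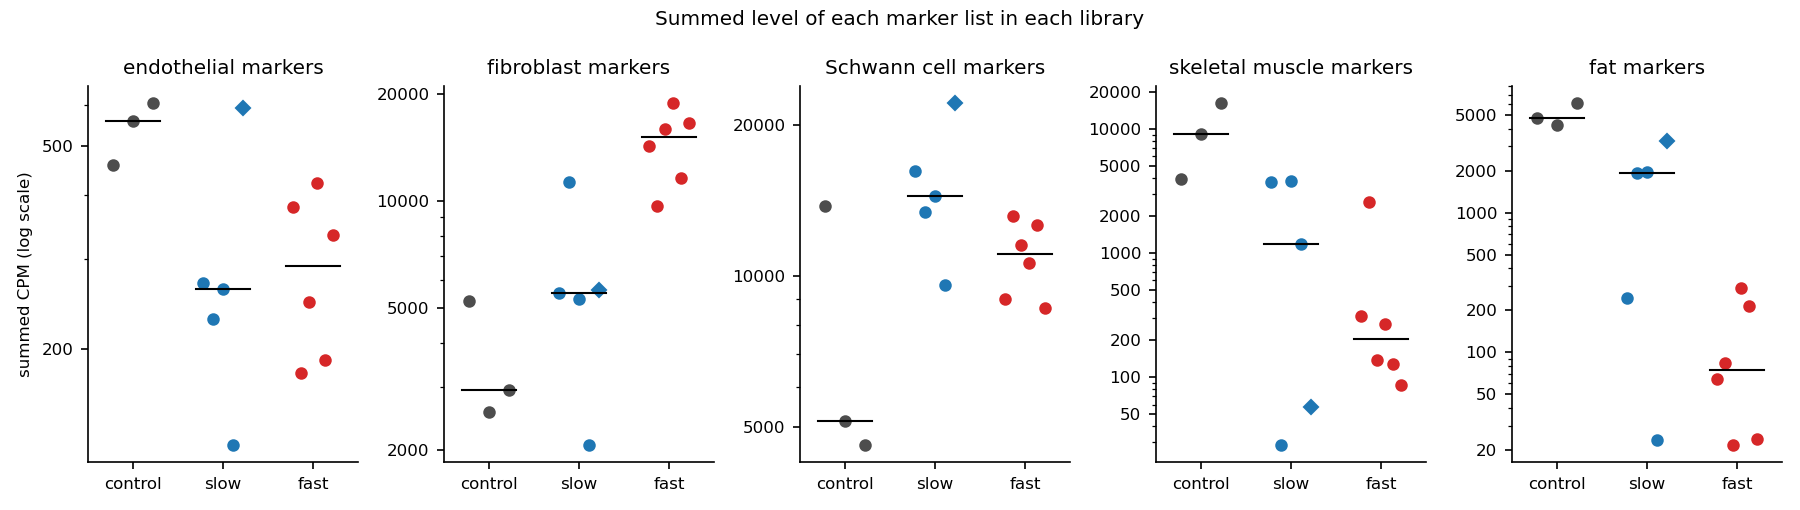
Summed CPM of 5 marker lists in each library, on log axes, for controls (grey), slow-growing PNs (blue) and fast-growing PNs (red), with medians as lines and library 1206 as a diamond. Library 1206 lies within the control range for endothelial markers (593 CPM) and far below the controls for skeletal muscle markers (57.1 CPM).

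Across the 11 PNs, the levels of several contractile genes went together. Of the 45 pairs among the 10 genes, 15 had a Pearson r of log2(CPM + 1) with an adjusted permutation p under 0.05, and 11 by Spearman's rho. The share over pairs of all genes was not computed, so these counts are descriptions of the members only. Without library 1206, 4 pairs passed. *Acta2* and *Myh11* were the closest pair (r = 0.99, rho = 0.97, n = 11, permutation adjusted p = 0.0009 for both). Their r was 0.92 without the 2 libraries farthest from the median (1191 and 1206) and 0.96 within the 6 fast-growing PNs. The slow-growing PNs were too few for a value of their own. For the 10 pairs of contractile genes r ran from 0.72 to 0.99, and from 0.03 to 0.94 without library 1206. No pair of *Rgs5* and a contractile gene passed (r from -0.32 to 0.22), and without library 1206 r was 0.59 with *Cnn1* and -0.56 with *Mylk*. Its r with *Cspg4* was -0.69 (rho = -0.71, permutation adjusted p = 0.0502 and 0.0634, n = 11).

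Likeness to *Myh11* and *Rgs5* was ranked over the 16283 genes tested in all PNs against controls, with the 10 members left out. Over the 11 PNs, the genes most like *Myh11* were *Myocd* (r = 0.98), *Eln* (0.97), *Myl9* (0.96), *Mrvi1* (0.96) and *Cytl1* (0.95). Without library 1206 these r were 0.91, 0.88, 0.84, 0.82 and 0.77. *Myocd* encodes myocardin, *Eln* the elastin of vessel walls and *Myl9* the regulatory light chain of smooth muscle myosin. The genes most like *Rgs5* were *Cul4a* (0.93), *Hsf2* (0.92), *Tctex1d2* (0.91), *Dph6* (0.91) and *Cep83os* (0.90), and none of them is in the list of other pericyte genes. These are descriptions over 11 libraries, which differed in depth.

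The members were also set beside the summed marker levels over the 11 PNs, in 60 relations. Endothelial markers went with 6 of the 10 genes at an adjusted permutation p under 0.05 (5 by rho), all at an absolute r of at least 0.77, which 5.61% of all genes tested also reached. Without library 1206 this held for 3 (*Higd1b*, *Acta2* and *Mylk*; 2 by rho), at an absolute r of at least 0.83, which 4.6% of all genes reached. *Higd1b* gave r = 0.93 and rho = 0.97 (n = 11, permutation adjusted p = 0.0006 for both, from the smallest p that the permutations can give), with r = 0.85 without libraries 1203 and 1206. *Acta2* gave r = 0.86 and rho = 0.89 (n = 11, permutation adjusted p = 0.0042 and 0.0171), with r = 0.79 without the same 2 libraries and 0.85 within fast-growing PNs. *Rgs5* gave r = -0.28 with endothelial markers (rho = -0.37, n = 11, permutation adjusted p = 0.549 and 0.532).

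*Cspg4* gave a higher r with fibroblast markers (r = 0.91, rho = 0.87, n = 11, permutation adjusted p = 0.00468 and 0.0194), with r = 0.73 without libraries 1202 and 1203 and 0.70 within fast-growing PNs. *Mcam* gave r = 0.78 and rho = 0.83 with the same list (n = 11, permutation adjusted p = 0.0328 and 0.0237), and r = 0.77 without these 2 libraries. Fibroblast markers summed to 2560 to 5241 CPM in controls, 2060 to 11338 CPM in slow-growing PNs and 9673 to 18852 CPM in fast-growing PNs. An absolute r of at least 0.78 with this sum, as both genes had, was reached by 17.9% of all genes tested. Without library 1206, a setting added after the data were seen, *Cspg4* (r = 0.96) and *Mylk* (r = 0.91) passed with this list and *Mcam* (r = 0.78) did not, where 4.77% of all genes reached an absolute r of at least 0.91. The sum was carried by *Apod* and *Dcn*, at 6358 and 4162 CPM on average in fast-growing PNs, and the list was not of one direction. In fast-growing PNs 7 of its 10 genes were higher and 1, *Dpt*, lower (from 67.3 to 8.21 CPM, log2 fold change -3.09, SE 1.03, edgeR adjusted p = 0.0462), 80% against 31.4% of all genes. In slow-growing PNs 0 of 10 passed the edgeR test, with *Pi16* and *Dpt* lower at an unadjusted p under 0.05, where 11.3% of all genes were called, and in all PNs 1 was higher and 1 lower, 20% against 26.3%. *Tagln* also passed with fat markers (r = 0.81, rho = 0.82, n = 11, permutation adjusted p = 0.0074 and 0.025) and, by r alone, with Schwann cell markers (r = 0.79, rho = 0.59, n = 11, permutation adjusted p = 0.0328 and 0.214). Such an absolute r was reached by 1.75% and 2.27% of all genes. Without library 1206 r was 0.77 and 0.56, and neither relation passed. The part of fibroblast content in the rise of *Cspg4* and *Mcam* was not tested.

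**Figure D5:**
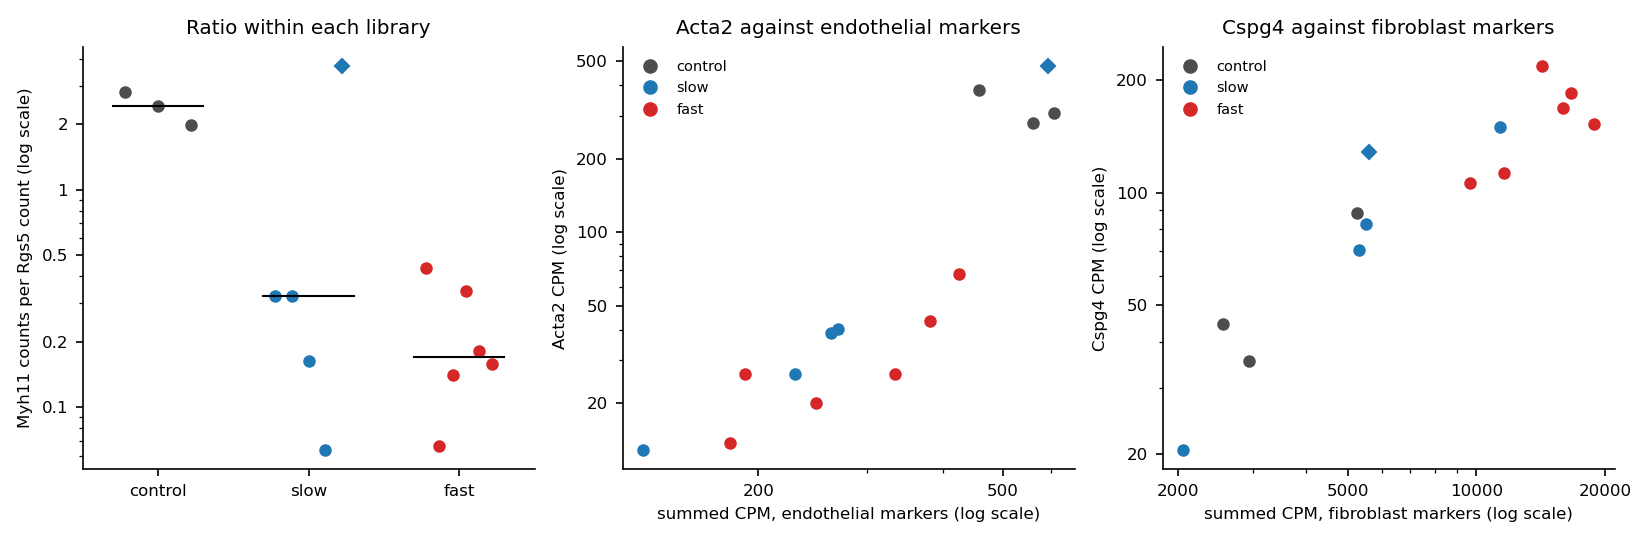
Left, counts of Myh11 per count of Rgs5 in each library on a log axis, with medians as lines. Middle, Acta2 against summed endothelial markers, and right, Cspg4 against summed fibroblast markers, in CPM on log axes, for controls (grey), slow-growing PNs (blue) and fast-growing PNs (red), with library 1206 as a diamond. The ratio is 1.99 to 2.82 in controls and at most 0.439 in all PNs but library 1206, at 3.70.

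Most of the other smooth muscle contractile genes were lower in fast-growing PNs as well. Skeletal muscle markers were also lower there, for 13 of 15 genes (86.7%), and their part in the fall of this list was not tested. In fast-growing PNs against controls, 11 of 18 were lower and 2 higher by the edgeR test, 72.2% of them against 31.4% of all genes, with a median log2 fold change of -1.38 against 0.02 over all genes tested. *Itga8*, an integrin subunit of contractile cells, had a log2 fold change of -3.58 (SE 0.31), *Myl9* one of -2.77 (SE 0.29) and *Myl6*, the essential light chain, one of -1.18 (SE 0.14), with edgeR adjusted p-values of 5.78e-05, 0.000146 and 0.000264. In all PNs against controls 9 were lower and 1 higher (55.6% against 26.3% of all genes), and 11 lower and 1 higher without library 1206 (66.7% against 27%). In slow-growing PNs 3 of 18 were lower (16.7% against 11.3% of all genes called), and 6 without library 1206 (33.3% against 7.87%). Between fast- and slow-growing PNs 0 passed, where 1.27% of all genes did. *Itga8* was at 123 CPM and *Myl9* at 166 CPM in library 1206, against 59.7 to 109 CPM and 107 to 164 CPM in controls. *Myl6*, at 126 CPM there, was below the 193 to 242 CPM of controls. Of the 18 genes, 9 were above the control range in library 1206, 3 were within it and 6 were below it, *Myl6* with *Tpm1*, *Tpm2*, *Des*, *Cnn2* and *Tes*, named after their values were seen.

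Of the regulators of these genes, 8 were tested, and 4 of these 8 were lower in fast-growing PNs by the edgeR test, where 16.7% of all genes were. *Myocd* fell by 3.67 (SE 0.55, edgeR adjusted p = 0.00102), from 7.19 to 10.7 CPM in controls to at most 1.13 CPM, and measured 12.6 CPM in library 1206. *Klf4*, a factor that opposes the contractile programme, fell by 1.66 (SE 0.33) and *Srf*, serum response factor itself, fell by 0.80 (SE 0.17), with edgeR adjusted p-values of 0.00462 and 0.00607. In slow-growing PNs *Mef2c* and *Klf4* were lower, 25% of the 8 against 11.3% of all genes, and without library 1206 1 regulator was, 12.5% against 7.87%. In all PNs 3 of the 8 were lower, 37.5% against 26.3%, and 4 without library 1206, 50% against 27%. The other arm of contraction, 9 tested genes of myosin phosphatase and RhoA-ROCK signalling, gave 0 calls in each of the 4 comparisons by the edgeR test, where 26.3% (all PNs), 11.3% (slow-growing), 31.4% (fast-growing) and 1.27% (fast against slow) of all genes were called. At an unadjusted p under 0.05 *Rhoa* and *Prkg1* were higher in all PNs and in fast-growing PNs, and *Ppp1r12b* in all PNs. Its median log2 fold change was 0.20 in fast-growing PNs against controls.

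In slow-growing PNs 4 of 15 other pericyte genes were lower and 0 higher by the edgeR test (*Abcc9*, *Kcnj8*, *Kcne4* and *Cox4i2*), 26.7% against 11.3% of all genes. In all PNs 3 were lower and 1 higher, 26.7% against 26.3%. Without library 1206, 4 were lower and 0 higher in slow-growing PNs, 26.7% against 7.87%. In all PNs 4 were then lower and 2 higher, 40% against 27%. In fast-growing PNs 3 of 15 were lower and 3 higher by the edgeR test, 40% against 31.4% of all genes, a share near that background. *Abcc9* and *Kcnj8*, the subunits of a potassium channel of pericytes and smooth muscle, had log2 fold changes of -2.80 (SE 0.27) and -2.59 (SE 0.29), with edgeR adjusted p-values of 9.65e-05 and 0.000203. *Foxs1*, a forkhead factor found in pericytes, rose by 2.39 (SE 0.38, edgeR adjusted p = 0.00145). *Abcc9* and *Kcnj8* also fell in slow-growing PNs, at -2.11 (SE 0.30) and -1.51 (SE 0.36), with edgeR adjusted p-values of 0.00427 and 0.0325, and in library 1206 they measured 43.9 and 9.83 CPM, below the lowest controls at 85.7 and 12.1 CPM.

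In the Notch pathway, 2 of 15 other genes were lower and 2 higher in fast-growing PNs by the edgeR test, 26.7% against 31.4% of all genes. *Heyl*, a Notch target of mural cells, fell by 1.62 (SE 0.17) and *Dll1*, a ligand, fell by 2.55 (SE 0.52), while *Hes1*, a broader target, rose by 1.498 (SE 0.17), with edgeR adjusted p-values of 0.000157, 0.00504 and 0.000233. *Heyl* was at 25.1 to 29.8 CPM in controls, 7.51 to 12.5 CPM in fast-growing PNs and 21.5 CPM in library 1206. Endothelial markers were lower for 7 of 12 genes in fast-growing PNs, 3 in all PNs and 1 in slow-growing PNs, and without library 1206 for 8 in all PNs and 4 in slow-growing PNs. The shares were 58.3%, 25% and 8.33%, against 31.4%, 26.3% and 11.3% of all genes called, and 66.7% and 33.3% without library 1206, against 27% and 7.87%. None of the 12 differed between fast- and slow-growing PNs in the edgeR test.

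The positions of the genes in the GENCODE vM21 annotation of mm10 bear on how reads were counted. *Notch3*, *Mcam*, *Tagln* and *Mylk* each share exon bases with a gene on the opposite strand, 488 bases for *Notch3* with *Gm17276*, 17 for *Mcam* with *Gm10687*, 1241 for *Tagln* with *Gm48529* and 108 with the protein-coding *Pcsk7*, and for *Mylk* 548 with *E130310I04Rik* and 224 with *Gm21691*. The sources used here do not give the strand setting of the counting, so reads from these stretches cannot be told apart. *Rgs5*, *Higd1b*, *Cspg4*, *Acta2*, *Cnn1* and *Myh11* share none. *Acta2* lies at chr19:34241090-34255590 on the minus strand, *Cnn1* at chr9:22099216-22109630 on the plus strand and *Myh11* at chr16:14194535-14291372 on the minus strand.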

How the data were processed

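Total RNA of 14 tissues was measured, from 3 controls and from PNs that grew slowly (5) or fast (6). The authors used a NuGEN Ovation kit for amplification, aligned reads to mm10 with TopHat2 2.0.9 and counted them with featureCounts 1.5.2, as the submitters' processing notes and the methods give it. The deposited counts are whole numbers per gene without normalization, and the authors' log2 values after edgeR 3.16.5 TMM scaling were not used here. Here edgeR 4.0.16 in R 4.3.3 was used with its filterByExpr filter, TMM factors, quasi-likelihood test and Benjamini-Hochberg adjustment. Each fit held only the libraries of its comparison. A gene was called at an adjusted p under 0.05. DESeq2 1.42.0 was an alternative, and the fits were tested on simulated data. Correlations used log2(CPM + 1) and 100000 permutations, two-sided. All 10 members were named, with the 5 tested genes outside the members that were most like *Rgs5* and *Myh11*. Of further lists, mostly at most 3 genes per comparison were named, those with the lowest adjusted p. Exceptions were the 4 pericyte genes called in slow-growing PNs and genes named for their values, such as *Dpt*, *Pi16*, *Apod* and *Dcn*. The members and all lists were chosen with earlier results of these data known, and the relations to marker lists were added after the values had been seen. Of the 24062 symbols, 22758 matched GENCODE vM21 directly and 950 by an older symbol. Other alternatives changed the size factors, the filter, the libraries fitted together and the covariates, removed a trend of length and GC content, or left out each library in turn. No column of per-sample counts was left out. Figures were drawn with matplotlib 3.10.9.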

Additional observations from a re-analysis of the deposited data

Results flagged for a closer look

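In the slow-growing PNs, the level of library 1206 lay far from the other 4 for 6 genes. It measured 34.8 CPM for *Notch3*, where the next highest was 14.96, 478 CPM for *Acta2* (next 40.3), 82.0 CPM for *Tagln* (next 23.5), 24.8 CPM for *Cnn1* (next 1.33), 281 CPM for *Myh11* (next 18.8) and 103 CPM for *Mylk* (next 26.3). In the fast-growing PNs, library 1191 lay far above the rest for *Mcam*, at 331 CPM (next 207), and for *Tagln*, at 25.6 CPM (next 11.9). These are 8 cases among 20 groups examined by Dixon's ratio, the gap to the next library over the range of the group. For normally distributed values chance gives about 1 in 20 groups. Levels in CPM were not shown to be normal, so that rate may be too low here. The 6 cases of library 1206 are not independent of each other. *Mcam* also differed between fast- and slow-growing PNs, with a log2 fold change of 1.03, by edgeR's quasi-likelihood test. Library 1191 also stood apart in neuron markers. They summed to 35.1 CPM there, the lowest of the fast-growing PNs, against 1736 to 6323 CPM in controls. The part of this difference in its *Mcam* and *Tagln* levels was not tested.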

How the results depend on the processing

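The count of members called was 4 for all PNs against controls, and 8 with DESeq2's Wald test, which by default replaces outlying counts in groups of at least 7 libraries. With that replacement off, an alternative added after seeing the data, DESeq2 gave no p to *Acta2*, *Cnn1* and *Myh11* and called 5 of the other 7. The count was 8 with all 14 libraries in 1 fit. With the muscle and fat scores as covariates it was 0 for all PNs, for fast-growing PNs (8 in the reported fit) and for fast- against slow-growing PNs (1). After removal of a length and GC trend, the last was 0 too. With these covariates, log2 fold changes also changed sign for *Rgs5* (0.31 for all PNs and 0.90 for fast-growing PNs against controls), *Cspg4* (-0.13 and -0.31), and, fast against slow, *Higd1b* (0.26) and *Mylk* (0.57). *Rgs5* in slow-growing PNs was -0.17 after the trend was removed. Where no value above shows it, the cause was not tested. When the libraries were left out singly, the counts ran from 0 to 7 for all PNs, 0 to 6 for slow-growing and 7 to 9 for fast-growing PNs against controls, and 0 to 1 between the PN groups. The highest values, 7 and 6, came without library 1206. Correlated pairs ran from 4 (without 1206) to 18. Signs changed for *Rgs5* in all PNs (-0.18 to 0.017), in slow-growing PNs (-0.22 to 0.20) and between PN groups (-0.40 to 0.043), and, between PN groups, for *Higd1b* (-0.29 to 0.28), *Acta2* (-2.26 to 0.16), *Cnn1* (-3.35 to 0.10), *Myh11* (-2.54 to 0.10) and *Mylk* (-0.46 to 0.63). *Cnn1* between PN groups was tested in 5 of these 11 fits and fell below the filter in the others. Among values of single genes in alternatives that kept every library and gave a p, 206 stayed on their side of the threshold with their direction, 12 newly passed it, 16 no longer passed it and 7 changed sign. No paired analysis was possible because the labels give mouse numbers that the groups do not share. Depth limits *Higd1b*, at 5 to 32 counts per library, and *Cnn1*, at 0 to 14 counts in the PNs other than 1206.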
